A study of Mus musculus with 6 samples.

Results

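The comparison was between 2 sites of the adult mouse skull, the mandible (the lower jaw) and the calvaria (the bones of the skull vault). Messenger RNA was measured on 2 arrays for each site, 4 of the 6 arrays of the series, and the other 2 held the ulna, a bone of the forelimb. All bones came from male mice of 24 to 26 g with no treatment or genetic change named. The calvarial bone had its sutures removed, the mandibular bone was ground with its teeth, and the ulna had its soft tissue and epiphyses taken off. The strain appears in the methods as Black CD57, and the number of mice behind each array was not stated. Ground bone is an organ and not a cell type, so the RNA could also hold that of marrow, vessels, nerve, muscle and lining tissue. The ulna arrays entered the fit only to estimate the spread between arrays, and their values are given below as levels without a test.

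The members of the comparison were the probe sets whose signal lay above the median of the array on at least 2 of the 6 arrays, with control probe sets left out. They numbered 25233 of 45101 and stood for 12326 of 18193 named genes. Signal is the intensity of a probe set on a linear scale, and the median of an array lay between 30.6 and 33.6. Each array was divided by its median before log2 was taken. A probe set was called when its Benjamini-Hochberg adjusted p from limma was under 0.05 and the sites differed by at least 2-fold. A gene stood by its tested probe set with the highest mean. Every p-value rests on 2 arrays a site that may differ only technically.

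The bones of the vault form within membrane close to the brain and its meninges. The mandible arises from neural crest cells of the first pharyngeal arch and carries the teeth, the gum and the insertions of the chewing muscles. The incisors of rodents grow throughout life, so ameloblasts, the epithelial cells that lay down enamel, and odontoblasts, which make dentine, stay active in the adult jaw. Transcription factors that give cells of the embryo a position, among them the Dlx, Msx, Zic, Twist, Fox and Hox families, are known for separate domains along the body and within the head.

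Between the sites, 1909 probe sets were called (7.57% of those tested), of which 1032 (4.09%) were higher in mandible and 877 (3.48%) in calvaria. Counted as genes, 1128 of 12326 (9.15%) were called, 634 (5.14%) higher in mandible and 494 (4.01%) in calvaria. The median size of the log2 difference was 2.05 among genes called higher in mandible and 1.26 among those called higher in calvaria. Differences of at least 8-fold were called for 169 genes in mandible and 43 in calvaria. The median log2 difference over all tested probe sets was -0.09, so a list with a median near that value lay where the arrays as a whole lay. Of the called genes, 414 had several tested probe sets, which lay on the same side in 385, and in 1 gene another probe set was called the opposite way. The mean signal lay under the array median in calvaria for 284 of the genes higher in mandible and in mandible for 158 of those higher in calvaria. The ulna lay between the skull sites for 245 of the genes higher in mandible, below both for 219 and above both for 170. For the genes higher in calvaria these numbers were 151, 87 and 256. Arrays of a site correlated at 0.952 to 0.956 over the tested probe sets, and arrays of mandible and calvaria at 0.846 to 0.853.

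**Figure D1:**
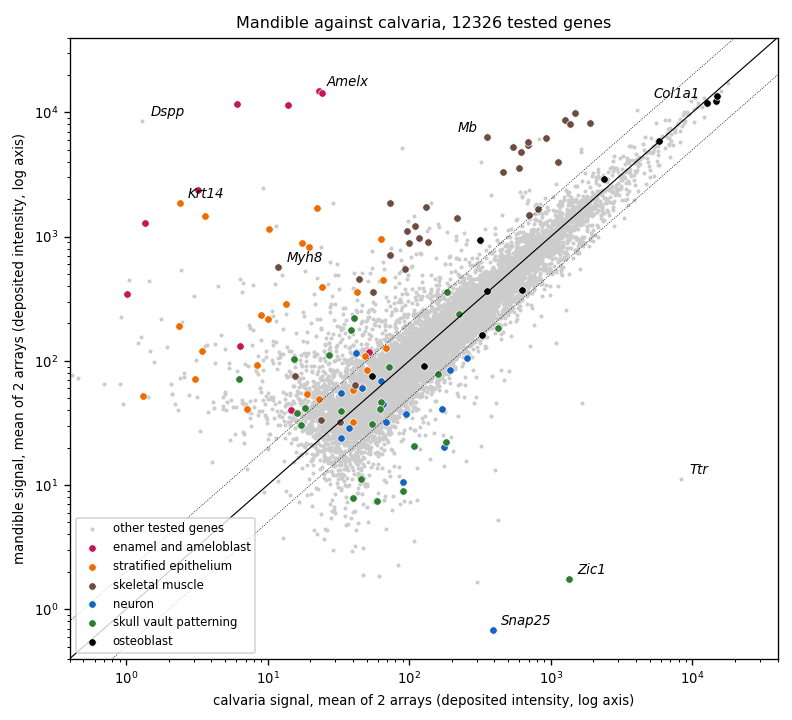
Mean signal of the 2 mandible arrays against that of the 2 calvaria arrays for each tested gene, on log axes in units of deposited intensity, with members of 6 gene lists coloured, a solid line of equal signal and dotted lines at 2-fold. Enamel genes lie at the top left, skeletal muscle genes lie in a band above the upper dotted line, osteoblast genes lie along the line of equal signal, and Zic1, Snap25 and Ttr lie at the lower right.

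The genes of enamel had the highest median difference of all the lists. Amelx, Ambn and Enam encode the proteins of the enamel matrix, Amtn and Odam proteins at the face between ameloblast and tooth, Mmp20 and Klk4 the proteases that process the matrix, and Slc24a4 an ion exchanger of maturing ameloblasts. Of 10 tested members of the enamel list, 8 were called higher in mandible and none in calvaria, with a median log2 difference of 9.42. Of the 10 tested members, 8 had passed the filter on low signal through the mandible arrays alone, so the count cannot stand as support. Amelx was not among these 8, since 1 calvaria array and 1 ulna array also lay above the array median. For Amelx the signals were 15135 and 14643 on the mandible arrays, 41.5 and 4.34 on the calvaria arrays and 36.1 and 30.3 on the ulna arrays. Both mandible arrays lay far above the other 4, which scattered around or under the array median. The log2 difference was 10.08 (SE 0.72, adjusted p = 4.17e-06), and with signals below the array median set to the median it was at least 395-fold. Ambn gave 13634 and 14869 in mandible against 23.2 and 25 in calvaria (log2 difference 9.17, adjusted p = 8.13e-11). Enam gave 2344 and 2377 against 5.54 and 0.953 (log2 difference 9.96, adjusted p = 5.06e-06). Signals this low carry no order among genes or arrays, and the size of these ratios depends on them. Odam reached 11463 and 11332 and Amtn 11673 and 11564 in mandible, with at most 16.2 and 9.25 in calvaria. Of the proteases, Mmp20 gave 1322 and 1242 against 1.34 and 1.39 (log2 difference 9.83, adjusted p = 2.49e-06). Klk4 gave 381 and 313 against 0.935 and 1.10 (log2 difference 8.37, adjusted p = 0.00409). Itgb6, an integrin subunit, and Dlx3, a homeobox gene, were the 2 members not called, with log2 differences of 1.45 and 1.16 (adjusted p = 0.106 and 0.123). Without either mandible array in turn 7 enamel genes were called, and Klk4 lost its call in both cases. Without moderation of the variances 5 were called, and Amelx, Enam and Slc24a4 were not among them.

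Dspp gave the largest log2 difference of any called gene, a rank that rests on very low signals outside the mandible. It encodes the precursor of the main non-collagen proteins of dentine and is the defining product of odontoblasts. Its signals were 8582 and 8383 in mandible, 0.828 and 1.77 in calvaria and 2.85 and 1.80 in ulna. The log2 difference was 12.73 (SE 0.50, adjusted p = 3.05e-08), at least 254-fold with dim signals set to the array median. Set in this way, Ambn at 427-fold, Amelx at 395-fold, Amtn at 348-fold and Odam at 341-fold stood above Dspp. Dspp had passed the filter through mandible alone. Of 10 tested members of the dentine list, 3 were called higher in mandible, none in calvaria, and the median log2 difference was 0.01. The other called members were Phex, an endopeptidase of mineralising cells, and Nes, an intermediate filament protein of odontoblasts and of precursor cells. Phex was present at every site, with signals of 2376 and 2179 in mandible, 683 and 622 in calvaria and 241 and 242 in ulna. It was 3.39-fold higher in mandible than in calvaria (adjusted p = 1.73e-07), but its probe set with the largest change was not called. Nes gave 169.7 and 199 in mandible and 40.5 and 27.8 in calvaria (log2 difference 2.41, adjusted p = 0.000224), a call lost without moderation. The list also holds genes that bone and dentine share, and those named here differed by less than 2-fold. Col1a1, the chain of type I collagen that makes most of the organic matrix of both tissues, gave 12080.2 and 11704 in mandible and 11842 and 13503 in calvaria (log2 difference -0.13, adjusted p = 0.208). Dmp1, a matrix phosphoprotein of odontoblasts and osteocytes, gave 4156 and 4436 against 3721 and 3162 (log2 difference 0.28, adjusted p = 0.0302). The difference of Dmp1 passed the adjusted p and fell short of 2-fold.

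The starts of 3 enamel genes, of the keratin gene Krt14 and of 3 transcription factors that differed between the sites are shown because the called genes as a group had starts poorer in CG pairs than the tested genes. Each line holds the 120 bases before the start of the gene from RefSeq on GRCm38.p6, 5′ to 3′ on the strand of the gene, with CG pairs in capitals.
Amelx, chrX:169187210-169187329, minus strand: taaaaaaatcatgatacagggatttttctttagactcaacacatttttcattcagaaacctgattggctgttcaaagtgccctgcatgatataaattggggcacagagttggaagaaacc
Ambn, chr5:88455871-88455990, plus strand: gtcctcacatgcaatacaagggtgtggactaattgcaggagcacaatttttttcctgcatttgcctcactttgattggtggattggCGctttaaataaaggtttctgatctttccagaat
Enam, chr5:88487855-88487974, plus strand: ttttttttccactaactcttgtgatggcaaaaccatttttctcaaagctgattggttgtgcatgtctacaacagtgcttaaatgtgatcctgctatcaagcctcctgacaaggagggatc
Krt14, chr11:100206031-100206150, minus strand: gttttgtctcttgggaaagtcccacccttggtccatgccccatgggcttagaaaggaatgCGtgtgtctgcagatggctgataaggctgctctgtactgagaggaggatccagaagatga
Hand2, chr8:57320863-57320982, plus strand: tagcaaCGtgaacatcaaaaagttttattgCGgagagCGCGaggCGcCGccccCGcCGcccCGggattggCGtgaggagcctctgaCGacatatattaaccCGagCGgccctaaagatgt
Zic1, chr9:91365769-91365888, minus strand: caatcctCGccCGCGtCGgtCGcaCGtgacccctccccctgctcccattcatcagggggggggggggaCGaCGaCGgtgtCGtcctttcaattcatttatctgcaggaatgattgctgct
Meis2, chr2:116064620-116064739, minus strand: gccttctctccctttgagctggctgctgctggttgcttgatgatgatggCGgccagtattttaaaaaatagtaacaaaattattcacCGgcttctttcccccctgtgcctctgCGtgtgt
These stretches held 0, 1, 0 and 1 CG pairs for Amelx, Ambn, Enam and Krt14, against 13 for Hand2, 10 for Zic1 and 3 for Meis2. Over windows of 300 bases, 250 before and 50 after the start, the median number of CG pairs was 20 for the 9946 tested genes with an entry, 11 for the genes called higher in mandible and 11 for those called higher in calvaria. It was 5 for the 120 genes with an entry that were at least 8-fold higher in mandible and 9 for the 33 at least 8-fold higher in calvaria. For the patterning lists, called members or not, it was 22 for tooth and jaw and 21 for the skull vault. The letters TATAAA, on the strand of the gene and wholly between 16 and 45 bases before the start, stood in 6.09% of windows of genes higher in mandible, 2.29% of those higher in calvaria, 1.61% of tested genes and 2.36% of all 27025 windows. Amelx was the only one of the 7 genes shown that held them at that distance. On either strand and anywhere in the window, the same letters stood in 14.7%, 12.5%, 7.70% and 14.2% of these windows. No use of these letters in bone was measured.

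Genes of stratified epithelium, the lining of gum and skin, formed another group that was bright on the mandible arrays. Of 27 tested members, 18 were called higher in mandible and none in calvaria, with a median log2 difference of 4.24, and 13 of the 27 had passed the filter through mandible alone. Krt14 and Krt5 encode the keratin pair of the basal layer. Krt14 gave 1890.1 and 1811 in mandible and 2.26 and 2.52 in calvaria (log2 difference 9.56, SE 0.31, adjusted p = 6.06e-09), and Krt5 1151 and 1133 against 4.05 and 16.3 (log2 difference 7.10, adjusted p = 3.98e-06). Ulna signals were 24.2 and 16.8 for Krt14 and 29.6 and 45.5 for Krt5. Krt13 and Krt4 encode the pair typical of the upper layers of moist linings such as the mouth. Krt13 gave 1528 and 1391 against 3.11 and 4.12 (log2 difference 8.63, adjusted p = 1.37e-06), and Krt4 1722 and 1688 against 20.4 and 24.2 (log2 difference 6.22, adjusted p = 2.47e-09). Both pairs thus stood far above the array median on both mandible arrays and under the array median in calvaria. Dsp, which anchors keratin at desmosomes, gave 795 and 965 against 18.5 and 16.4 (log2 difference 5.61, adjusted p = 6.45e-09). Mt4, a metallothionein of stratified epithelium, gave 477 and 405 against 0.446 and 2.48 (log2 difference 8.67, adjusted p = 5.21e-05). Of 16 members of the skin and hair follicle list with a probe set, 5 could be tested and 4 were called higher in mandible, led by Krt27, a keratin of the hair root sheath, at 50.9 and 79 against 2.71 and 1.48, and Sprr1a, a protein of the cornified envelope, at 261 and 231 against 18.7 and 17.1. Of these 5 members, 4 had passed the filter through mandible alone. The call of Krt27 was lost without any 1 of the 4 skull arrays, with quantile normalisation, with the replicate number as a block and without moderation. Of the list, 1 member was called without moderation and 2 without calvaria array 1. Of 11 salivary and mucous gland markers with a probe set, 3 passed the filter, none was called by limma and 1 passed the adjusted p alone, towards calvaria. Without moderation 10 epithelial genes were called, and without either mandible array 13. How much gum epithelium lay on the mandible was not recorded, and its part in other differences was not tested. In whole tissue, fewer cells of a type and less RNA per cell cannot be told apart.

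**Figure D2:**
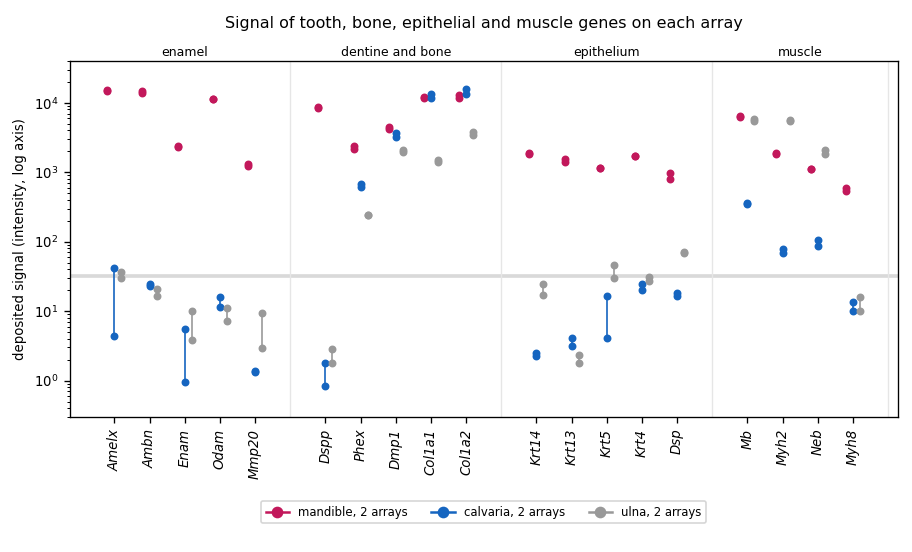
Deposited signal on each array, on a log axis in intensity units, of 5 enamel genes, 5 genes of dentine and bone, 5 epithelial genes and 4 muscle genes, with 2 points a site joined by a line and a grey band at the range of the array medians. Enamel genes, Dspp and keratins are bright on the mandible arrays only, Col1a1 and Col1a2 overlap between the skull sites or nearly so, Mb, Myh2 and Neb are bright in mandible and ulna, and Myh8 in mandible alone.

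Most skeletal muscle genes were higher in mandible. Of 32 tested members, 28 were called higher in mandible and none in calvaria, with a median log2 difference of 2.75, and 27 to 29 were called under every alternative. Mb, which encodes the oxygen store myoglobin, gave 6362 and 6242 in mandible, 352 and 359 in calvaria and 5544 and 5846 in ulna (log2 difference 4.11, SE 0.06, adjusted p = 8.13e-11). Neb, the ruler of the thin filament, gave 1109.6 and 1129.5 in mandible, 106 and 87.4 in calvaria and 2084 and 1851 in ulna (log2 difference 3.50, adjusted p = 3.73e-09). Ryr1, the calcium release channel, gave 741 and 684 against 60.4 and 87.1 (log2 difference 3.25, adjusted p = 1.34e-07). Mb, Neb and Ryr1 were thus measured above the array median in calvaria as well, and for Mb and Neb the ulna stood nearer to the mandible. Summed over the list, the signal was 96588 and 94532 in mandible, 14669 and 15086 in calvaria, and 108128 and 110691 in ulna. Myh8, the perinatal myosin heavy chain that jaw muscles are known to keep into adult life, stood in another order. Its signals were 539 and 599.7 in mandible, 13.5 and 10.1 in calvaria and 10.1 and 16.2 in ulna. Both mandible arrays lay above all others, and ulna and calvaria overlapped under the array median. The log2 difference between mandible and calvaria was 5.56 (SE 0.34, adjusted p = 1.29e-06), at least 17-fold with dim signals set to the array median. Myh2, the myosin of fast oxidative fibres, stood the other way between mandible and ulna, with 1815 and 1895 in mandible, 68.4 and 77.7 in calvaria and 5600.4 and 5539 in ulna (log2 difference between skull sites 4.63, adjusted p = 1.70e-10). Myosin genes are close in sequence, and their probe sets can share signal. Of genes of slow fibres, Tnnt1, Tnnc1 and Myh7 were not called, with log2 differences of 0.66, 0.40 and -0.03 and adjusted p of 0.140, 0.50 and 0.970.

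Of 9 tested regulators of muscle identity, 3 were called higher in mandible and none in calvaria, and 1 with the stricter filter. Myf6, the myogenic factor of mature fibres, gave 90.2 and 107 against 14.2 and 17.1 (log2 difference 2.61, adjusted p = 4.51e-05), with 152 and 116 in ulna. Tbx1, a T-box factor of pharyngeal arch muscle and of tooth epithelium, gave 82 and 75.6 in mandible, 23.1 and 21.4 in calvaria and 37 and 16.5 in ulna (log2 difference 1.78, adjusted p = 0.0122). The part of muscle in these values was not tested. The call of Tbx1 was lost without either mandible array, without calvaria array 2 and without moderation. Eya4, a transcriptional coactivator, gave 87.1 and 74.6 against 28.2 and 28.4 (log2 difference 1.47, adjusted p = 0.00242).

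Genes of oxidative phosphorylation, the respiratory chain of mitochondria, leaned towards mandible. Of 24 tested members, 5 were called higher in mandible and none in calvaria, with a median log2 difference of 0.58, and 22 of 24 passed the adjusted p in that direction. Cox8b, Cox7a1 and Cox6a2 encode the forms of cytochrome oxidase subunits used by muscle and showed the largest differences, of 3.76, 3.15 and 2.84 on the log2 scale (adjusted p = 5.64e-08, 9.38e-09 and 4.00e-08). Atp5g1 and Ndufa4, used in all tissues, differed by 1.12 and 1.07 (adjusted p = 1.01e-05 and 0.000109) and both lost their calls without mandible array 1, where 3 members were called. Ndufa4 also lost its call without calvaria array 1. The part of muscle in these values was not tested.

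Patterning factors of jaw and tooth were found in the adult mandible. Of 19 tested members of the list, 9 were called higher in mandible and none in calvaria, with a median log2 difference of 2.54, but 7 of the 19 had passed the filter through mandible alone. Hand2, a factor that sets the lower jaw apart from the upper in the embryo, gave 462 and 454 in mandible, 8.73 and 4.02 in calvaria and 3.38 and 9.29 in ulna. The log2 difference was 6.23 (SE 0.62, adjusted p = 4.14e-05), at least 13.7-fold with dim signals set to the array median. Msx2, a homeobox gene of tooth and skull, gave 353 and 403 against 21.2 and 42.7 (log2 difference 3.61, adjusted p = 5.14e-05). Of the Dlx genes, Dlx4 gave 148 and 155 against 38.8 and 17.1 (log2 difference 2.52, adjusted p = 0.000839). Dlx5 and Dlx3 stood above the array median at both skull sites and were not called, with log2 differences of 0.15 and 1.16 (adjusted p = 0.611 and 0.123). The LIM homeobox genes Lhx8 and Isl1, both known from the oral side of the first arch, were also called. Lhx8 gave 156 and 156 against 0.766 and 1.77 (log2 difference 7.03, adjusted p = 0.0406), and Isl1 197 and 160.4 against 13.8 and 1.95 (log2 difference 5.06, adjusted p = 0.00318). Shh, the signal of dental epithelium, gave 477 and 507 in mandible and 28.3 and 34 in calvaria (log2 difference 3.94, SE 0.30, adjusted p = 6.19e-06). Without mandible array 1, 4 members were called, and without moderation 3. Isl1, Sp6, Dlx2, Lhx8 and Tbx1 lost their calls without mandible array 1, and Lhx8 also without mandible array 2 and with the replicate number as a block.

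Factors of the skull vault were called in both directions. Of 24 tested members, 7 were called higher in calvaria and 5 in mandible, with a median log2 difference of -0.22. Of the 24, 4 had passed the filter through mandible alone and 6 through calvaria alone, so the counts cannot stand as support. Zic1, which encodes a zinc finger protein of dorsal tissues of the head, had the largest log2 difference of all genes called higher in calvaria. This rank rests on very low mandible signals. Its signals were 2.35 and 1.18 in mandible, 1439 and 1235 in calvaria and 49.9 and 48.2 in ulna. The log2 difference was -9.69 (SE 0.35, adjusted p = 1.46e-08), at least 41.1-fold with dim signals set to the array median. Set in this way, Ttr, described below, stood above Zic1 at 257-fold. Foxd1, a forkhead factor, gave 22.7 and 21.6 in mandible and 183 and 183 in calvaria (log2 difference -3.09, adjusted p = 0.000802). Meis2, a cofactor of homeobox proteins, gave 10.4 and 7.62 against 87.3 and 93.2 (log2 difference -3.38, adjusted p = 0.00147), but a dimmer second probe set with a larger change was not called. Nr2f1, an orphan nuclear receptor, gave 26.6 and 14.4 against 114 and 101 (log2 difference -2.49, adjusted p = 0.00197). The fold change of these dimmer genes rests on mandible signals under the array median. On the mandible side, Alx1, a homeobox gene of the facial skeleton, gave 202 and 239 against 37.9 and 43.3 (log2 difference 2.40, adjusted p = 0.000174), a call lost with its probe set of largest change. Foxf1 gave 106 and 102 against 19.4 and 11.1 (log2 difference 2.78, adjusted p = 0.000461), and Foxf2 67.2 and 76.5 against 5.39 and 7.11 (log2 difference 3.49, adjusted p = 0.00701), a call lost without either mandible array. The forkhead factors thus stood in opposite directions, with Foxd1 and Foxc1 higher in calvaria and both Foxf genes in mandible. Foxc1 gave 77.7 and 78.6 in mandible and 159 and 161 in calvaria (log2 difference -1.07, adjusted p = 0.00117), a call lost with an offset of 0.5 array medians. The paralogues Twist1 and Twist2, named after their values were seen, also went opposite ways. Twist1 gave 188 and 179.5 in mandible and 406 and 439 in calvaria (log2 difference -1.24, adjusted p = 0.000138). Twist2 gave 177 and 177 against 31.5 and 45.5 (log2 difference 2.18, adjusted p = 0.000172), and the calls of both held under every alternative. Irx5 and Irx3, homeobox genes of several head tissues, were not called, with log2 differences of 0.92 and 0.04 (adjusted p = 0.000755 and 0.895). Without mandible array 1 or without moderation, 3 members of the list were called higher in mandible, and with the stricter filter 2, beside 4 in calvaria. Zic5 lost its call without calvaria array 1, calvaria array 2 or mandible array 1.

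Hox genes, the position factors of trunk and limbs, were dim at both skull sites. Of 22 members with a probe set, 6 passed the filter, and none was called or passed the adjusted p of limma. The lowest adjusted p, 0.0511, belonged to Hoxa9, with 2.01 and 17.4 in mandible, 38.4 and 24.6 in calvaria and 163 and 174 in ulna (log2 difference -2.42), which was called higher in calvaria with the replicate number as a block, with the stricter filter and without mandible array 2.

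**Figure D3:**
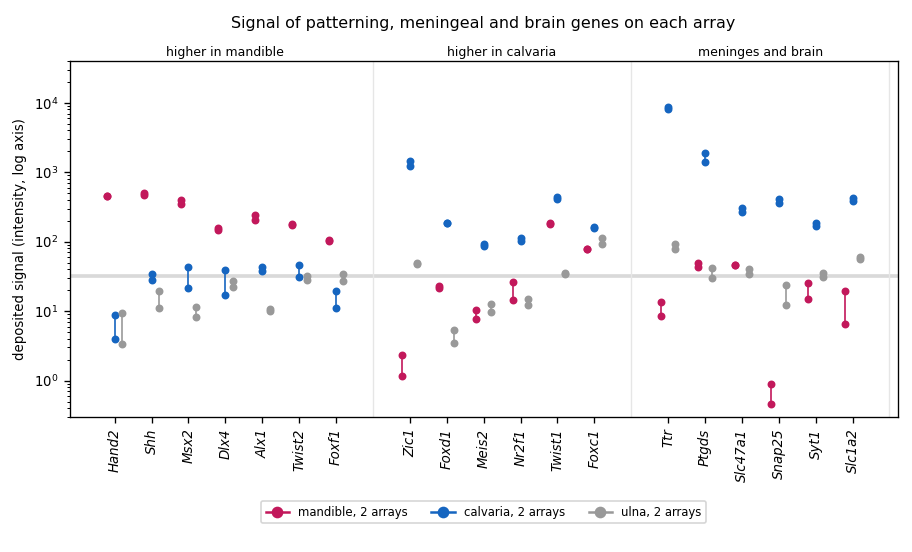
Deposited signal on each array, on a log axis in intensity units, of 7 patterning factors higher in mandible, 6 higher in calvaria and 6 genes of meninges and brain, with 2 points a site joined by a line and a grey band at the range of the array medians. In each of the 19 genes the 2 mandible points and the 2 calvaria points are apart, as they are in 65.3% of all tested genes. Twist1 and Foxc1 are well above the band at both skull sites, and the remaining genes are near or under the band in one of them.

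In Wnt signalling, secreted ligands bind Frizzled receptors and stabilise β-catenin. Of 39 tested members of the Wnt list, 8 were called higher in mandible and 2 in calvaria, with a median log2 difference of 0.41, and 2 members had passed the filter through mandible alone and 1 through calvaria alone. Wnt5a, a ligand of growing jaw and tooth, gave 329 and 378 in mandible and 34.6 and 74.9 in calvaria (log2 difference 2.75, adjusted p = 9.35e-05). Wnt10a, a ligand of tooth and hair follicle, gave 209 and 153 against 35.9 and 11.8 (log2 difference 3.08, adjusted p = 0.00120). Wnt4 was 2.54-fold higher in mandible (adjusted p = 0.00359). Secreted inhibitors were found on both sides. Frzb gave 130.0 and 128 in mandible and 5.37 and 22 in calvaria (log2 difference 3.53, adjusted p = 0.00218), Sfrp1 was 3.17-fold higher in mandible (adjusted p = 0.000619), and Sfrp2 gave 1301 and 1137 in mandible and 2645 and 2945 in calvaria (log2 difference -1.24, adjusted p = 6.61e-05). Rspo3, which strengthens Wnt signals, gave 21.8 and 28.6 against 114 and 121 (log2 difference -2.27, adjusted p = 0.000665). Ctnnb1, the β-catenin that carries the signal, stood at 4123 and 4286 against 4243 and 4348 (log2 difference -0.07, adjusted p = 0.427). Sfrp1 and Sfrp2, both inhibitors of the same family, thus differed in opposite directions. Without mandible array 1, with an offset of 0.5 array medians and without the variance trend, 5 Wnt genes were called higher in mandible, and without moderation 1, while Wnt11 lost its call without any 1 of the skull arrays. Frzb lost its call without moderation and with its other probe set.

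Of 22 tested members of the BMP list, 5 were called higher in mandible and 3 in calvaria, with a median log2 difference of 0.43. The called share was 36.4%, against 9.15% of all tested genes. The ligands Bmp4 and Bmp7 were higher in mandible, Bmp4 at 179 and 203 against 70.3 and 75.7 (log2 difference 1.34, adjusted p = 0.000841) and Bmp7 at 108 and 140.5 against 38.5 and 16 (log2 difference 2.27, adjusted p = 0.00326). Sostdc1, an inhibitor of BMP and Wnt signals known from tooth development, gave 226 and 196 against 69.1 and 47.7 (log2 difference 1.83, adjusted p = 0.00121). Smad6 and Id1, which BMP signals are known to induce, were 2.59-fold and 2.01-fold higher in mandible (adjusted p = 0.000303 and 0.000385). In calvaria the called members were the ligand Gdf10 and the extracellular modulators Bmper and Chrdl1. Gdf10 gave 61 and 80.3 in mandible and 454 and 487 in calvaria (log2 difference -2.79, SE 0.17, adjusted p = 1.54e-06). Chrdl1 gave 63.6 and 63.7 against 241 and 256 (log2 difference -2.00, adjusted p = 6.55e-06), and Bmper 27.3 and 31.3 against 129 and 108 (log2 difference -2.06, adjusted p = 0.000290). The ligands were thus divided, Bmp4 and Bmp7 from Gdf10. Without moderation no BMP gene was called higher in mandible, and Id1 also lost its call without calvaria array 1, without mandible array 1 and with the offset.

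In the hedgehog list, with 11 tested members, Ptch1, the receptor that Shh is known to induce, was called beside Shh. It gave 880.0 and 802 in mandible and 360.1 and 371 in calvaria (log2 difference 1.16, adjusted p = 4.24e-05). The coreceptor Cdon was higher in calvaria, at 82.3 and 66.5 against 293 and 299.6 (log2 difference -2.04, adjusted p = 9.34e-05). The called share of the hedgehog list was 27.3%, against 9.15% of all tested genes, with a median log2 difference of 0.40. In the FGF list, 2 of 13 tested members were called, the ligand Fgf1 and the receptor Fgfr3, each 2.23-fold higher in mandible (adjusted p = 0.000369 and 0.000221). The called share of the FGF list was 15.4%, against the same 9.15%. Its median log2 difference of -0.07 lay near the -0.09 of all tested probe sets. Of 14 tested genes of retinoic acid, 6 were called higher in mandible and none in calvaria, with a median log2 difference of 1.10. They include enzymes that make it, Aldh1a3 at 215 and 276 against 42.4 and 43.4 (log2 difference 2.46, adjusted p = 0.000964) and Rdh10 at 317 and 299.8 against 115 and 108 (log2 difference 1.43, adjusted p = 3.04e-05). The binding proteins Crabp1 and Crabp2 differed by 3.35 and 3.73 on the log2 scale (adjusted p = 0.00152 and 0.000586). Rarb, a receptor gene that retinoic acid induces, differed by 2.26 (adjusted p = 0.00133). Cyp26a1, which breaks retinoic acid down, gave 133 and 105 against 8.03 and 11.5 (log2 difference 3.58, adjusted p = 0.0271) and lost its call without any 1 of the 4 skull arrays. The other 8 tested members were not called, the lowest at a log2 difference of -0.32, and 3 of the 14 had passed the filter through mandible alone. Crabp1 lost its call without mandible array 2. Without moderation 2 genes of the list were called, and another probe set of Aldh1a3 with a larger change was not called.

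Genes of bone formation were mostly not called, as was also the case for most tested genes. Of 11 tested osteoblast genes, 1 was called higher in mandible and 1 in calvaria, with a median log2 difference of -0.13. The called share was 18.2%, against 9.15% of all tested genes. Col1a2 stood at 12860.1 and 11791 in mandible and 13415 and 15725 in calvaria (log2 difference -0.28, adjusted p = 0.0345), and Sparc, a collagen-binding glycoprotein, at 13802 and 13138 against 14311 and 15421 (log2 difference -0.18, adjusted p = 0.0489). Alpl, the alkaline phosphatase of mineralising cells, was higher in mandible with 955 and 912 in mandible, 310.4 and 327 in calvaria and 106 and 102 in ulna (log2 difference 1.51, SE 0.10, adjusted p = 2.82e-06). Ifitm5, a membrane protein of osteoblasts, gave 185 and 140.3 against 357 and 294 (log2 difference -1.05, adjusted p = 0.00604), and lost its call with quantile normalisation, with the offset, without the variance trend, without moderation and without calvaria array 1 or mandible array 2. Osteocyte genes had a median log2 difference of 0.37, with Phex and Kera called of 12 tested (16.7%). Sost, the Wnt inhibitor secreted by osteocytes, gave 689 and 634 against 391 and 405 (log2 difference 0.69, adjusted p = 0.000259), and Mepe, a matrix phosphoprotein, 1532 and 1499.8 against 1903 and 1798 (log2 difference -0.33, adjusted p = 0.010). Both passed the adjusted p and fell short of 2-fold, in opposite directions. None of 24 tested genes of the secretory pathway was called, and 5 passed the adjusted p alone (2 higher in mandible and 3 in calvaria), with a median log2 difference of -0.12. Of 23 fibroblast matrix genes, Vcan and Fbn2 were called higher in mandible and Mfap4 in calvaria. The called share was 13%, against 9.15% of all tested genes, with a median log2 difference of -0.11. Mfap4 gave 4.98 and 32.8 in mandible and 213 and 192 in calvaria, and lost its call without the variance trend and without moderation. The microfibril gene Fbn2 gave 346 and 309 against 78.4 and 58.3 (log2 difference 2.23, adjusted p = 7.41e-05), and Vcan, the large proteoglycan of loose tissue, 478 and 509 against 128 and 159 (log2 difference 1.75, adjusted p = 1.79e-05).

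Osteoclast genes leaned towards calvaria by differences close to 2-fold. Of 15 tested members, 5 were called higher in calvaria and none in mandible, with a median log2 difference of -0.79, and 9 passed the adjusted p in that direction. Acp5, the tartrate-resistant acid phosphatase of osteoclasts, gave 2119.6 and 1790.2 in mandible and 3708 and 4031 in calvaria (log2 difference -1.03, adjusted p = 0.000299). Mmp9 gave 989 and 947 against 1989.9 and 1825 (log2 difference -1.02, adjusted p = 2.51e-05). Ctsk, the collagenase of resorbing cells, gave 3011 and 3115 against 5239 and 5459.6 (log2 difference -0.85, adjusted p = 6.28e-06) and was not called. All 15 differences were below 0. The number called depended on scaling. It was 0 with values as deposited and with scaling to the 75th percentile, 2 with quantile normalisation or the offset, 1 without moderation, and 1 to 3 without a single skull array, lowest without mandible array 2.

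Genes of marrow cells also leaned towards calvaria. B cell genes were called higher in calvaria in 8 of 16 tested members, neutrophil genes in 6 of 17, erythroid genes in 4 of 15, marrow stroma genes in 3 of 12 and macrophage genes in 2 of 17. In this order the shares were 50%, 35.3%, 26.7%, 25% and 11.8%. Over all tested genes, 4.01% were called higher in calvaria and 9.15% in either direction. None of these lists had a member called higher in mandible, but Spon2 of the marrow stroma list stood at 167 and 173 against 22.5 and 15.1 (log2 difference 3.16, adjusted p = 0.0537) and was called with the replicate number as a block, with only the 4 skull arrays, with the offset, with the stricter filter and without either ulna array. Spon2 was picked out with its values known. The median log2 differences of the lists, in the order given, were -1.01, -0.95, -0.76, -0.53 and -0.48. Vpreb1, a surrogate light chain of B cell precursors, gave 91.6 and 78.2 in mandible, 209 and 355 in calvaria and 256 and 288 in ulna (log2 difference -1.73, adjusted p = 0.000213). Pou2af1, a coactivator of B cells, gave 150.0 and 194 against 454 and 469 (log2 difference -1.48, adjusted p = 3.01e-05). Padi4, a neutrophil enzyme that modifies histones, gave 66.1 and 66.3 against 185 and 200.2 (log2 difference -1.58, adjusted p = 2.22e-05), and Ncf1, a subunit of the phagocyte oxidase, 378 and 384 against 894 and 903 (log2 difference -1.28, adjusted p = 9.01e-07). In each, both calvaria arrays lay above both mandible arrays. The arrays of the sites were likewise apart in all 1909 called probe sets and in 65.3% of all tested genes. S100a9 and S100a8, abundant proteins of neutrophil granules and cytosol, were not called, with log2 differences of -0.07 and -0.15 (adjusted p = 0.364 and 0.0858). Alas2, the first enzyme of haem synthesis in red cell precursors, gave 1041 and 1033 in mandible, 1961 and 2125 in calvaria and 2831 and 2724 in ulna (log2 difference -1.02, adjusted p = 2.49e-06). Its call was lost with values as deposited, with scaling to the 75th percentile and without calvaria array 2. Erythroid calls numbered 2 with values as deposited or quantile normalisation and 1 with scaling to the 75th percentile, and neutrophil calls 3 with the first and last of these. Without calvaria array 2 there were 2 erythroid calls. The called genes of marrow stroma and macrophages were Il7, a growth factor of lymphocyte precursors, Foxc1, Cd163, a scavenger receptor, and Vcam1. Vcam1 is on both of these lists and counts in each, and Foxc1 is also on the skull vault and meninges lists. Vcam1, an adhesion molecule, gave 481 and 526 against 1012 and 1027 (log2 difference -1.06, adjusted p = 1.87e-05) and lost its call without mandible array 1. Il7 lost its call without calvaria array 1, calvaria array 2, mandible array 2 or ulna array 2, and also with only the 4 skull arrays, with the offset, without the filter and without moderation. With the offset, 1 marrow stroma gene was called higher in calvaria.

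Genes of cell division leaned the same way. Of 25 tested members, 6 were called higher in calvaria and 1 in mandible, and 23 passed the adjusted p towards calvaria, with a median log2 difference of -0.87. Ccne1, a cyclin of entry into S phase, gave 76.1 and 59.7 in mandible, 145 and 163 in calvaria and 219 and 249 in ulna (log2 difference -1.23, adjusted p = 0.000446). Mcm5 and Mcm3, subunits of the replicative helicase, differed by -1.07 and -1.13 (adjusted p = 5.08e-06 and 3.87e-05). Mcm2, a subunit of the same helicase, was the member called higher in mandible, at 558 and 489.9 against 220.2 and 205 (log2 difference 1.26, adjusted p = 2.86e-05). Its 2 probe sets opposed each other. The other had a log2 difference of -0.89 (adjusted p = 0.000371) and stood on the side of the remaining list, and the direction of Mcm2 is not settled by these arrays. The summed signal of the list was 11376 and 11512 in mandible, 18346 and 18790 in calvaria, and 28021 and 27726 in ulna, the order also shown by the summed erythroid genes (7533 and 7895, 11517 and 11918, 19786 and 19236). The part of marrow in the differences of osteoclast and cell division genes was not tested.

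Genes of meninges, choroid plexus and brain were among those with the largest differences towards calvaria. Ttr, the transthyretin secreted by the choroid plexus, gave 13.7 and 8.55 in mandible, 8087 and 8619 in calvaria and 92.3 and 77.6 in ulna. The log2 difference was -9.63 (SE 0.20, adjusted p = 3.04e-10), at least 257-fold with dim signals set to the array median. Ptgds, the prostaglandin synthase of the meninges, gave 42.8 and 48.6 against 1916 and 1406 (log2 difference -5.21, adjusted p = 3.12e-08). Slc47a1, a transporter, gave 45.8 and 45.8 against 267 and 307 (log2 difference -2.68, adjusted p = 7.38e-06). Slc4a10, a bicarbonate transporter of choroid plexus and neurons, gave 1.03 and 2.31 against 304 and 295 (log2 difference -7.64, adjusted p = 0.000184). Folr1, another marker of choroid plexus, stood at 20.6 and 9.86 against 44.2 and 44.5 and was not called (log2 difference -1.68, adjusted p = 0.0681). The list as a whole was mixed, with 4 of 16 tested members called on each side, and 2 had passed the filter through each site alone. Those in mandible were Crabp2, Rdh10, Igfbp2 and Dapl1, of which Crabp2 and Rdh10 also belong to the retinoic acid list. Igfbp2 and Dapl1 lost their calls without either mandible array and without calvaria array 2, and Igfbp2 also without calvaria array 1.

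Of 15 tested neuronal genes, 7 were called higher in calvaria and 1 in mandible, with a median log2 difference of -1.12, and 2 had passed the filter through calvaria alone. Snap25, a component of synaptic vesicle fusion, gave 0.457 and 0.899 in mandible and 415 and 362 in calvaria (log2 difference -9.28, adjusted p = 1.15e-05), at least 11.9-fold with dim signals set to the array median. Syt1, the calcium sensor of vesicle release, gave 25.5 and 14.8 against 185 and 169 (log2 difference -3.22, adjusted p = 4.24e-05), and Map2, of dendrites, 48.5 and 32.9 against 187 and 153 (log2 difference -2.12, adjusted p = 0.000586). Stmn2, a protein of growing axons, was called higher in mandible at 116 and 113 against 32.3 and 52 (log2 difference 1.44, adjusted p = 0.00704), but its other probe set had a log2 difference of -1.57 (adjusted p = 0.106). Its call was also lost without either mandible array and without calvaria array 1. Of brain glia, Slc1a2, the main glutamate transporter of astrocytes, gave 19.7 and 6.54 against 382 and 432 (log2 difference -5.20, adjusted p = 8.39e-06), and Mobp, of central myelin, 2.39 and 2.15 against 80.9 and 84.5 (log2 difference -5.23, adjusted p = 0.00477). Of 7 tested glial genes 3 were called higher in calvaria, and 1 without either calvaria array, where Mobp lost its call. Of the defining markers of astrocytes, Gfap gave 9.74 and 23 against 15.3 and 11.3, and Aqp4 70.4 and 94.8 against 79 and 72. Genes of nerve sheath were divided. Of 10 tested members, Ncmap was called higher in mandible (log2 difference 2.49, adjusted p = 0.000693) and Cnp in calvaria (log2 difference -1.13, adjusted p = 3.53e-05), and without either calvaria array 2 were called in mandible. The part of adhering brain and meninges in other differences, Zic1 among them, was not tested.

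**Figure D4:**
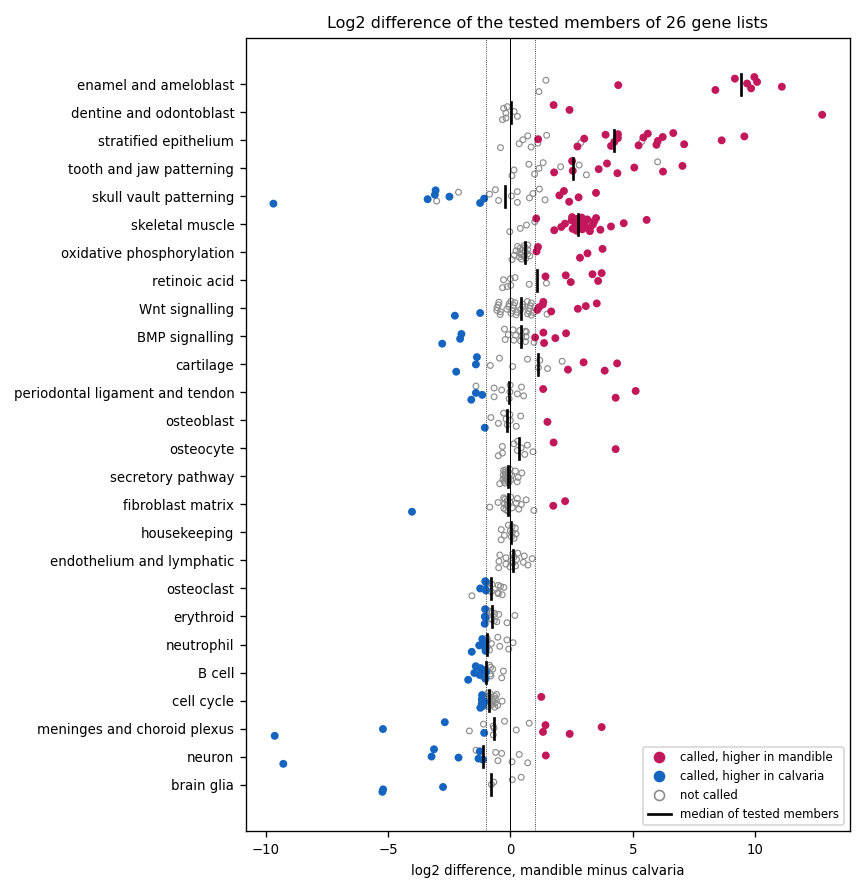
Log2 difference, mandible minus calvaria, of each tested member of 26 gene lists, with called members filled, members not called open, a black bar at the median of the tested members and dotted lines at 2-fold in each direction. Enamel, epithelium and muscle lie to the right, marrow, cell cycle and neuronal lists lie to the left, and osteoblast, secretory, fibroblast and housekeeping lists lie around 0.

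Cartilage and ligament genes were called in both directions. Of 15 tested cartilage genes, 4 were called higher in mandible and 3 in calvaria, and 4 of the 15 had passed the filter through mandible alone. Col2a1, the main collagen of cartilage, gave 813 and 711 in mandible and 72.9 and 36 in calvaria (log2 difference 3.85, SE 0.32, adjusted p = 1.28e-05). Col10a1, the collagen of hypertrophic cartilage, gave 105 and 71.3 against 1.93 and 8.74 (log2 difference 4.36, adjusted p = 0.00680). Those higher in calvaria were Epyc, Chad and Matn4, proteins of the cartilage matrix, with log2 differences of -2.22, -1.41 and -1.37 (adjusted p = 0.00625, 0.00177 and 0.000779). Chad is also on the periodontal ligament and tendon list and counts in both. Without either mandible array 1 member was called higher in mandible, with Col10a1 among those lost, Epyc lost its call without calvaria array 1 or mandible array 2, and without moderation none was called in either direction. Of 16 genes of periodontal ligament and tendon, 3 were called on each side. Postn, the periostin of the ligament that holds the tooth, gave 10202 and 10889 in mandible, 4402 and 3742 in calvaria and 1226 and 1106 in ulna (log2 difference 1.34, SE 0.08, adjusted p = 1.48e-06). Thbs4, a matrix protein of tendon insertions, gave 848 and 803 in mandible, 17.9 and 30.0 in calvaria and 346 and 400.0 in ulna (log2 difference 5.11, adjusted p = 4.21e-08). Tnmd, the tenomodulin of tendon and ligament, went the other way, with 355 and 319.7 in mandible and 992 and 995 in calvaria (log2 difference -1.60, adjusted p = 2.19e-05), a call lost without moderation.

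Other cell types gave small numbers of calls, some of them from short lists. None of 17 tested endothelial genes was called, 1 passed the adjusted p alone towards mandible and 2 towards calvaria, and their median log2 difference was 0.10. Of 7 tested adipocyte genes Plin4 was called higher in mandible (log2 difference 2.40, adjusted p = 0.000209), and Adipoq stood at 326 and 307 against 275 and 304. Of 7 mast cell and eosinophil genes Hdc, the histidine decarboxylase, was called higher in calvaria (log2 difference -1.16, adjusted p = 0.000806), a call lost without mandible array 1. Of 10 T and NK cell genes with a probe set, 5 passed the filter. Cd8a and Gzma were called in opposite directions, each call lost without some single arrays. The called share was 40% for this list and 14.3% for each of the adipocyte and mast cell lists, against 9.15% of all tested genes. Of 19 immediate early and stress genes Hspa1b was called, higher in mandible (log2 difference 1.15, adjusted p = 0.00256), lost with the offset and without calvaria array 2. None of 11 housekeeping genes was called, and 1 passed the adjusted p towards mandible and 3 towards calvaria. None of 4 genes of the sex chromosome check was called, or passed the adjusted p.

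Some called genes lay side by side in the genome. Of the 634 genes called higher in mandible, 119 (18.8%) lay next to a tested gene called the same way, and 76 (15.4%) of the 494 called higher in calvaria. Of all 12305 tested genes with a position, 9.74% lay next to a gene called higher in mandible and 7.73% next to one called higher in calvaria, and the difference was not tested. Runs of 3 or more such neighbours numbered 15 in mandible and 7 in calvaria. The mandible runs included Myh2, Myh1, Myh4 and Myh8 of the muscle myosin cluster, Krt13, Krt15, Krt14, Krt16 and Krt17 of one keratin cluster, Krt6b, Krt6a and Krt5 of the other, and Amtn, Ambn and Enam of the enamel cluster. They also included Lce3a, Lce3b, Lce3c, Lce3f, Crct1 and Rptn, mostly of the cornified envelope. The runs were chosen for display after their values were seen. Rptn, a protein of cornified epithelium, gave 429.9 and 457 in mandible and 0.780 and 1.31 in calvaria (log2 difference 8.73, adjusted p = 0.00232), a call lost without either mandible array and without the filter. Keratin genes, and likewise myosin heavy chain genes, are close in sequence to one another, and their probe sets may share signal.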

How the data were processed

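Total RNA of ground bone was labelled after 1 round of amplification and hybridised to the Affymetrix Mouse Genome 430 2.0 array, with 2 arrays each of mandible, calvaria and ulna. The deposited values were MAS5 signal intensities, which the authors scaled so that the trimmed mean of each array was 100 with 2% trimmed at each end, as found on the values. The groups came from the sample titles. A name was taken from the platform annotation where a probe set had 1 symbol (34945 probe sets), while 932 had several, 9160 none, and 64 were controls. Symbols were matched to RefSeq promoters of GRCm38.p6.

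Each intensity was divided by the median of its array and log2 was taken without an offset. limma (version 3.58.1, R 4.3.3) fitted a mean per site with lmFit and eBayes with a variance trend, and the contrast was mandible minus calvaria. The residual degrees of freedom were 3 and the prior degrees of freedom 7.67, and the median SE of a log2 difference was 0.215. The adjusted p is Benjamini-Hochberg over all tested probe sets. On simulated data with 25233 probe sets, 87% of those changed 3-fold and 98% of those changed 8-fold were called, with 16 unchanged ones. The simulated noise was normal, independent between probe sets and of a spread set by mean signal alone. These shares therefore check the fit and need not hold for the real arrays. Tables and figures were made with Python 3.11.15, pandas 2.3.3 and matplotlib 3.10.9.

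The members and the 40 gene lists were chosen with earlier results of these data known, so no test over a list was made. Named were the 15 genes with the largest change in each direction, up to 8 called members of each list with the largest change, and up to 4 members not called with the highest mean, and other genes are said to be chosen after their values were seen. A fold written "at least" sets signals under the array median to the median. The number of mice behind an array, and whether RNA was pooled, was not given, so a p-value measures the spread between arrays, which may be technical. The number of arrays limits the precision. Deviations from the site means of arrays with the same number correlated at -0.005 between mandible and calvaria, so the numbers were not taken to pair them. Other scalings, filters, offsets, variance models, sample sets and call rules were tried. The stricter filter asks for signals above the 75th percentile of the array.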

Additional observations from a re-analysis of the deposited data

How the results depend on the processing

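The reported calls numbered 1909, with 1032 on the mandible side and 877 on the calvaria side. The numbers were 1189, 675 and 514 with the filter at the 75th percentile, which tests fewer probe sets, 723, 435 and 288 without moderation of the variances, 5532, 2114 and 3418 with the adjusted p alone, and 1128, 634 and 494 when genes were counted in place of probe sets. With the adjusted p alone, the share higher in mandible was thus 38.2% in place of 54.1%. Without moderation 706 of the 1909 calls were kept, and 139 of 274 called genes open to naming lost their call. Among gene lists, calls towards calvaria then numbered 4 for B cells, 4 for neurons, 2 for cell division and none for brain glia. The cause of these changes was not tested beyond the construction of the settings.

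With the replicate number as a block there were 1848 calls, of which 1006 were on the mandible side and 842 on the calvaria side, and 1819 were kept. Among the genes described with values, the block ended the calls of Lhx8, Krt27 and Tph1 and added those of Hoxa9 and Spon2. Leaving out 1 array at a time gave 1605 to 1984 calls, 750 to 1111 higher in mandible and 622 to 1009 in calvaria. The share higher in mandible was 44.9% and 42.6% without mandible array 1 and 2, and 60.3% and 61.2% without calvaria array 1 and 2. Other scalings gave shares of 58.7% to 60.7% and moved the median log2 difference from -0.09 to between -0.05 and -0.04. Stmn2 changed direction with its other probe set (log2 difference -1.57, adjusted p = 0.106, against 1.44).

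With 2 arrays a site the precision is limited, and ratios against signals under the array median have no firm size.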

Other observations

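Genes named here were chosen after their values were seen, so their counts are a description. Of 24 genes listed for the pineal gland and photoreceptors, 13 were tested, 9 were called higher in calvaria and none in mandible. Over all tested genes, 4.01% were called higher in calvaria. Tph1, Ddc, Cdhr1, Gnb3, Mpp4 and Cplx3, all called, had passed the filter through the calvaria arrays alone. The count thus cannot stand as support. Chgb, a protein of secretory granules, gave 6.85 and 3.68 in mandible, 449 and 392 in calvaria and 25 and 33.5 in ulna (log2 difference -6.43, adjusted p = 9.91e-07). Ddc, an enzyme on the path to serotonin, gave 15.5 and 11.8 against 64.6 and 64.6 (log2 difference -2.30, adjusted p = 0.00680), and Tph1, the enzyme before it, 10.6 and 9.90 against 83.7 and 95.5 (log2 difference -3.17, adjusted p = 0.0498). Cdhr1, a photoreceptor cadherin, gave 15.7 and 11.8 against 121 and 106 (log2 difference -3.10, adjusted p = 0.0125). The calls of Ddc, Tph1 and Cdhr1 were lost without either calvaria array, Tph1 also without either mandible array and Cdhr1 without mandible array 2. Other members of the list did not share this pattern. Sag gave 54.8 and 68.7 in mandible against 75.3 and 64.8 in calvaria and was not called (log2 difference -0.23, adjusted p = 0.635). Tmprss3 was called, but its calvaria signals of 20.9 and 30.0 lay under the array median and below 55.7 and 37.3 in ulna. Aanat, the defining enzyme of melatonin synthesis, did not pass the filter. Nor did Crx, at 37.7 and 20.4 in mandible against 20.4 and 1.91 in calvaria.

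Connective tissue genes that were bright in calvaria included Ecrg4, a secreted peptide precursor, at 126 and 150.4 in mandible, 1040.1 and 1146 in calvaria and 69.4 and 73.5 in ulna (log2 difference -3.03, adjusted p = 8.09e-08). Thbs2, a matrix glycoprotein, gave 463 and 635 against 1702 and 1519.8 (log2 difference -1.61, adjusted p = 0.000130), Dpt, which binds dermatan sulphate, 212 and 246 against 853 and 850.2 (log2 difference -1.94, adjusted p = 1.15e-06), and Col8a1, a short-chain collagen, 253 and 280.0 against 807 and 664 (log2 difference -1.50, adjusted p = 1.33e-05). Tnn, a tenascin of bone and tooth surroundings, was on the other side with 2012 and 2238 in mandible against 703 and 554 in calvaria (log2 difference 1.72, adjusted p = 1.02e-05).

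Some transcription factors outside the patterning lists also differed. Shox2, a homeobox gene of limb and palate, gave 351 and 315 in mandible, 32.3 and 24.9 in calvaria and 148 and 158 in ulna (log2 difference 3.51, adjusted p = 3.03e-07). Tbx3, a T-box factor, gave 116 and 118 against 11.7 and 12.5 (log2 difference 3.23, adjusted p = 0.000165). Prrx1, a homeobox gene of skeletal mesenchyme, was higher in calvaria with 605 and 568 against 1158 and 1206 (log2 difference -1.05, adjusted p = 1.85e-05), and Foxp2, a forkhead factor, gave 23.8 and 24.6 against 205 and 191 (log2 difference -3.07, adjusted p = 8.16e-05). The Tbx family was thus divided, since Tbx2 had a log2 difference of 0.09 (adjusted p = 0.843) and Tbx18 one of -3.60 (adjusted p = 0.0292), a call lost without either calvaria array and without mandible array 1. Of 17 tested genes of the interferon response, Oas3, Dhx58 and Slfn9 were called higher in calvaria and none in mandible, and Dhx58 lost its call without calvaria array 2.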
